A study of Mus musculus with 6 samples.

Results

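The serpins are a family of protease inhibitors and their non-inhibitory relatives, and 62 of the 23940 gene symbols in the deposited table begin with Serpin once Serping1, the complement C1 inhibitor, is set aside. Of these 62 genes, 61 are reported and 13 had a mean of at least 1 FPKM (fragments per transcript length and sequencing yield, a unit of relative RNA abundance) over the 6 libraries; 12 of the 13 are described one by one, and the 49 lower genes are counted. RNA was sequenced from cells without CD45, the surface marker of leukocytes, that were sorted from YUMM1.7 melanomas grown in C57BL/6 mice. YUMM1.7 is a mouse melanoma line with an activating Braf mutation and without Cdkn2a, and both groups of tumours carry these alleles. The groups were 3 residual tumours on treatment with a BRAF inhibitor and 3 tumours taken before treatment. The drug's name, its dose, the time on treatment and the age of the mice are not stated in the labels, nor is whether both groups were collected together. The labels number the tumours, but do not say whether each came from its own mouse, so p-values speak only for the variation among these tumours, part of which may be technical.

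An inhibitory serpin offers its reactive centre loop to a protease as bait. When the protease cuts the loop, the serpin snaps into a new shape and traps the enzyme in a covalent complex that is cleared from the tissue by endocytic receptors. In tumour stroma the best known members restrain the plasminogen activators and thrombin, while clade B serpins stay inside cells and guard them against proteases of granules and lysosomes. A few members have lost inhibition and serve as a collagen chaperone, a secreted signal or a hormone carrier.

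Total FPKM ran from 414834 to 554684 in libraries on the inhibitor and from 562041 to 921297 in pre-treatment libraries, and read depth cannot be recovered from these values. The libraries held RNA of markers of several cell types. Summed FPKM of the 8 fibroblast markers was 3537 to 4484 on the inhibitor, against 676 to 1045 before treatment, with 4 of 8 genes higher and none lower. Of the endothelial markers, 6 of 7 tested were higher, with sums of 82.9 to 125 on the inhibitor and 36.4 to 46.5 before treatment, and 3 without on-BRAFi replicate 1. Of the pericyte and smooth muscle markers, 3 of 6 tested were higher and 1 lower, with sums of 97.7 to 140 on the inhibitor and 60.7 to 69.8 before treatment; the lower one, Cspg4, missed the threshold after rescaling to the same total and without on-BRAFi replicate 1 or 3 or pre-treatment replicate 1 or 3. The melanocyte markers Mlana, Dct and Tyrp1 were listed at 0 in all libraries, and 1 of 3 tested genes of that list, Mitf, was higher. The adipocyte and Schwann cell lists each had 1 gene higher, Fabp4 and Pmp22, of 1 and 4 tested, with sums of 18.5 to 159 on the inhibitor against 2.15 to 3.20 before treatment for adipocytes and of 83.2 to 150 against 16.2 to 29.4 for Schwann cells; Fabp4 made up nearly all of the adipocyte sum and missed the threshold without on-BRAFi replicate 1, and the other 6 adipocyte markers, Adipoq and Plin1 among them, stayed at or below 1.32 FPKM in every library. The leukocyte markers, with Ptprc between 0.118 and 2.18 FPKM, summed to 2.96 to 5.23 on the inhibitor and 6.78 to 10.9 before treatment. None of the tested genes of the leukocyte, macrophage, T and NK cell, mast cell, erythroid, platelet and skeletal muscle lists passed. The erythroid sums were uneven, at 20.7 to 1216 on the inhibitor and 21.7 to 53.9 before treatment. Hbb-b1 had 104, 1012 and 0.323 FPKM in the libraries on the inhibitor. No keratinocyte, neutrophil or hepatocyte marker reached the level for testing; 5 of 8 keratinocyte markers and 3 of 4 neutrophil markers were at 0 in all libraries. In such a mix, fewer cells of a type and less RNA per cell cannot be told apart, and the part of these cell types in the serpin values was not tested.

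Of the 12 genes described, 4 rose on the inhibitor and 8 did not pass (limma on log2(FPKM + 0.1), Benjamini-Hochberg adjusted p at most 0.05 over the 12075 genes with a mean of at least 1 FPKM). Among all 12075 genes 19.1% passed, 8.76% higher and 10.3% lower; the serpin share of 4 in 12 stands on few genes. The genes that rose were Serpinf1, Serpine2, Serpinb9 and Serpinb6b. An unadjusted p of at most 0.05 was reached by 5 of the 12, with Serpinb6a, at a lower level on the inhibitor, beside these 4, against 34.2% of all genes tested. The 3 libraries of one group lay wholly above those of the other for 7 of the 12, 6 higher and 1 lower on the inhibitor, against 40.4% of all genes tested, 20.9% higher and 19.5% lower. The median log2 fold change (on the inhibitor over pre-treatment) was 0.41 over the 12 and -0.0063 over all genes tested. Each of the 12 had a mean of at least 1 FPKM in either group taken alone, so none passed the level filter through 1 group only.

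**Figure D1:**
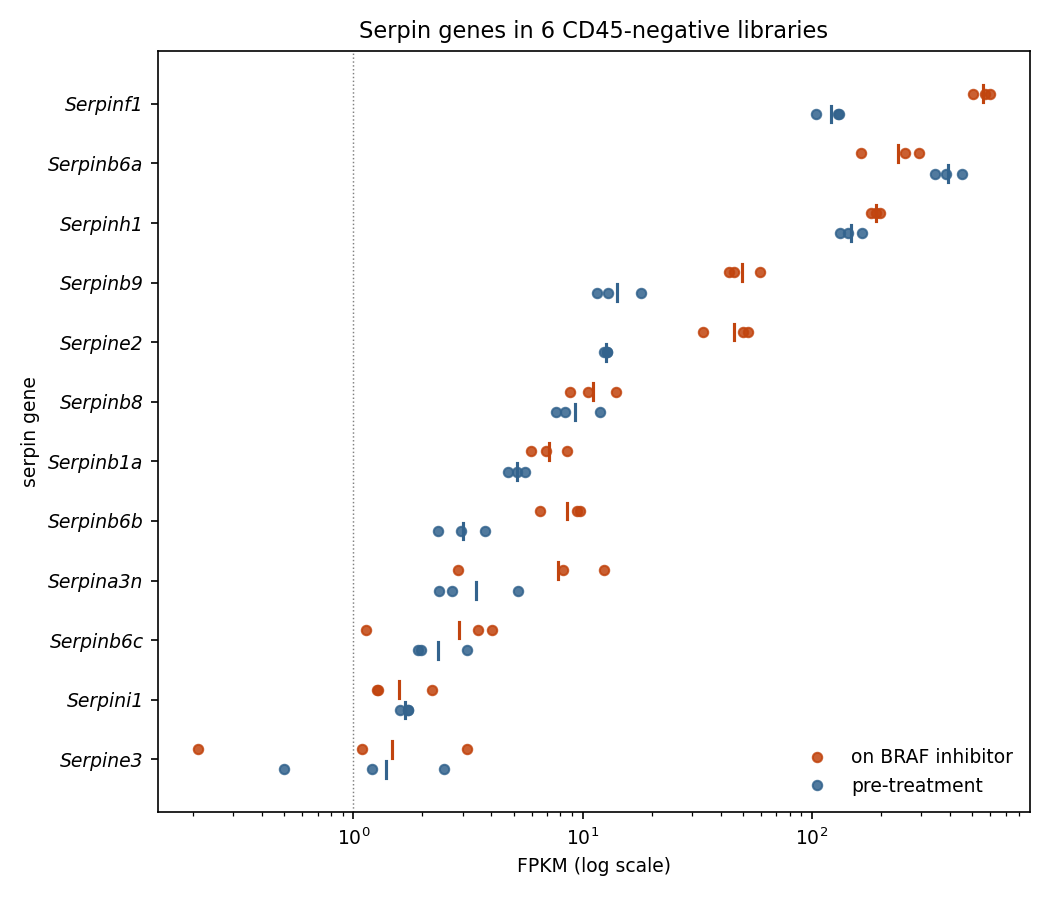
FPKM of 12 serpin genes (log axis) in each of the 3 libraries on the BRAF inhibitor (orange, upper row of a gene) and the 3 pre-treatment libraries (blue, lower row), with the group mean as a short line and 1 FPKM as a dotted line. Serpinf1, Serpinb9, Serpine2, Serpinb6b, Serpinh1 and Serpinb1a lie wholly higher on the inhibitor and Serpinb6a wholly lower. Of these, Serpinh1, Serpinb1a and Serpinb6a did not pass in limma's test. Serpinb8, Serpina3n, Serpinb6c, Serpini1 and Serpine3 overlap.

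Direction depends in part on the scaling of libraries. Rescaling each library to the same total FPKM moved the median of all genes to 0.52 on the log2 scale and turned the split of all genes from 1058 higher and 1249 lower to 2007 higher and 518 lower. Under that scaling 6 of the 12 serpin genes were higher, as Serpinb8 and Serpinh1 crossed the threshold. Quantile normalization gave 5 higher, with Serpinh1 added. Serpinf1, Serpine2 and Serpinb9 were higher, with an adjusted p of at most 0.0244, under each of the 17 alternatives, including every library left out in turn.

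**Figure D2:**
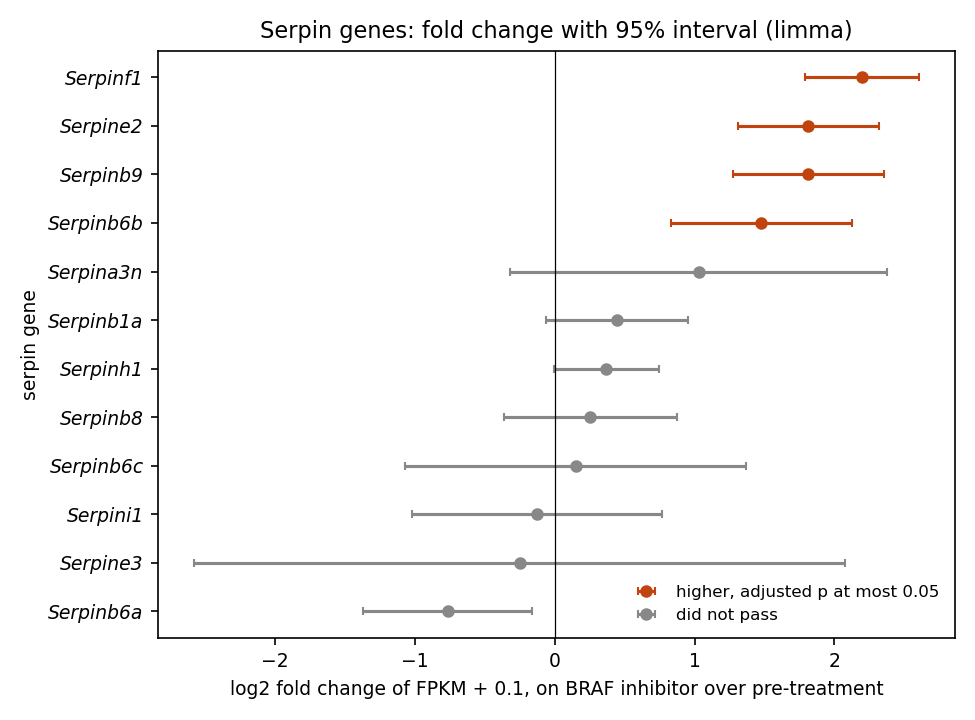
Log2 fold change of FPKM + 0.1, on the BRAF inhibitor over pre-treatment, for 12 serpin genes, with limma's 95% interval. Orange points passed as higher and grey points did not pass; the estimates run from -0.77 for Serpinb6a to 2.20 for Serpinf1.

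Promoters are shown for the 4 genes picked by their call as higher, and shared regulation of these genes was not tested. Each window holds the 250 bases before the start site from RefSeq on the GRCm38.p6 assembly, on the strand of the gene and 5′ to 3′. Of the 12 genes, 11 matched that RefSeq table. The deposited values were made on mm9, per the submitters' processing notes, so these coordinates belong to GRCm38.p6 alone. Capitals mark the GC box GGGCGG on either strand. The Serpinf1 window is chr11:75422624-75422873 (minus strand), the Serpine2 window is chr1:79858666-79858915 (minus strand), the Serpinb9 window is chr13:33004291-33004540 (plus strand) and the Serpinb6b window is chr13:32965011-32965260 (plus strand).
Serpinf1: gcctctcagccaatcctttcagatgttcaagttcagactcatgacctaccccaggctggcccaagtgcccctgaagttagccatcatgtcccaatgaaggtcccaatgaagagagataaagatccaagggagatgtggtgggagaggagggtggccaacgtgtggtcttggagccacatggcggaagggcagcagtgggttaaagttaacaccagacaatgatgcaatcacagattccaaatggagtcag
Serpine2: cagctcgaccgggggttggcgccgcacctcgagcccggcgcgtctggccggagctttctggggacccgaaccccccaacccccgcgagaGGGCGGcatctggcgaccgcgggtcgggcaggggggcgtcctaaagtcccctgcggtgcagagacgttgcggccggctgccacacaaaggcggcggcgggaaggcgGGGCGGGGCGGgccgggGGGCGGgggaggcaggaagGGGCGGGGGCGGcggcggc
Serpinb9: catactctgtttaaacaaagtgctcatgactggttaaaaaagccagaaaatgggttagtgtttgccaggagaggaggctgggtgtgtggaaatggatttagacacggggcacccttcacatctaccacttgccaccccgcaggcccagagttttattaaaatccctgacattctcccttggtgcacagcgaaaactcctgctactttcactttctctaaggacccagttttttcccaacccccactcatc
Serpinb6b: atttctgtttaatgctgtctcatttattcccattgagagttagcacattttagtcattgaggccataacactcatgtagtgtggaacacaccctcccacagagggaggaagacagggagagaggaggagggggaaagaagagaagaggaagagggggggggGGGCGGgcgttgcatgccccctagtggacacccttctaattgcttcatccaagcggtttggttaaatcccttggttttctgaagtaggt

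The windows differ in base composition. Serpine2 had 78.8% G and C, against 51.6% in Serpinf1, 49.6% in Serpinb6b, 47.6% in Serpinb9 and a median of 52.4% over all 32851 windows of the table. Serpine2 held 6 GC boxes, counting matches that overlap each other, with first bases from position -161 to position -13 before the start site. Serpinb6b held 1, at position -89, and Serpinf1 and Serpinb9 held none; 32.7% of all windows held at least 1. None of these 4 windows held TGANTCA, the AP-1 motif (found in 6.75% of all windows), TATAAA (12.4%) or TTCNNNGAA, a STAT motif (7.02%), searched on both strands. These matches describe letters only and say nothing on binding.

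In the role group named for inhibitors of plasminogen activators and thrombin, 10 genes are reported, 3 of which were described and 1 of which rose. The group was set as a list, and not every member has an established target among these enzymes. Serpine2 encodes protease nexin-1, a matrix-bound inhibitor of thrombin, urokinase and plasmin. It had 52.8, 50.2 and 33.6 FPKM on the inhibitor, against 12.7, 12.4 and 12.8 FPKM before treatment. All treated libraries were above all untreated ones, and the untreated ones had an SD of only 0.240 FPKM. The mean was 3.61-fold higher on the inhibitor (log2 fold change 1.81 ± 0.21, SE; limma, adjusted p = 0.00286).

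The other described members of this role group were low. Serpini1, which encodes neuroserpin, an inhibitor of tissue plasminogen activator best known in neurons, had 1.27, 2.21 and 1.28 FPKM on the inhibitor and 1.72, 1.72 and 1.60 FPKM before treatment. Its groups overlapped, and the log2 fold change of -0.13 had a 95% interval from -1.02 to 0.77. Serpine3 had 0.210, 3.13 and 1.09 FPKM on the inhibitor and 1.21, 0.497 and 2.48 FPKM before treatment, a wide spread in either group; 24.8% of its exon bases are overlapped by Ints6 on the opposite strand in the GRCm38 annotation, and unstranded reads there cannot be assigned. Its mean was slightly higher on the inhibitor while its log2 fold change was -0.25, with an interval from -2.58 to 2.08. Serpind1 (heparin cofactor II) and Serpinc1 (antithrombin), which circulate in plasma, stayed below a mean of 1 FPKM but were above 0 in all 6 libraries.

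Proteases, receptors and cofactors of plasminogen activation changed in both directions. Of 14 tested genes of plasminogen activation, serpin targets and cofactors, 2 rose, 3 fell and 9 did not pass, with a median log2 fold change of -0.31, which turned to 0.24 after rescaling to the same total. In fits without on-BRAFi replicate 1 or 3 only 1 of these fell. Plaur, the receptor that holds urokinase at the cell surface, had 1.14, 1.35 and 1.87 FPKM on the inhibitor, against 19.5, 7.24 and 15.8 FPKM before treatment. Its groups lay far apart, with a mean 9.75-fold lower on the inhibitor (limma, adjusted p = 0.00378), and it passed whichever library was left out.

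The plasminogen activators themselves did not pass. Plau, urokinase, had 23.0, 13.9 and 5.26 FPKM on the inhibitor and 15.0, 12.2 and 17.6 FPKM before treatment, with on-BRAFi replicates 1 and 3 as the extremes (log2 fold change -0.31, interval -1.51 to 0.90). Plat, tissue plasminogen activator, had 14.5, 18.1 and 10.4 FPKM on the inhibitor and 12.2, 9.77 and 13.5 FPKM before treatment (log2 fold change 0.26, interval -0.35 to 0.86). Plg, the plasminogen gene itself, was listed at 0 in 5 of 6 libraries. Vtn, which encodes the matrix protein vitronectin, had a mean under 1 FPKM and was not tested.

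Among the other genes of that list, the serine proteases Prss23 and Htra1 rose 4.21-fold and 2.86-fold in mean FPKM and passed whichever library was left out. S100a10, a subunit of a plasminogen receptor, fell to a mean of 417 ± 186 FPKM on the inhibitor, against 1264 ± 362 FPKM before treatment (SD, n = 3 each); of the 6 fits with a library left out, it passed only in that without on-BRAFi replicate 2. Eno1, a glycolytic enzyme that also binds plasminogen, was 3.21-fold lower and missed the threshold without on-BRAFi replicate 1 or 3. Procr, the endothelial protein C receptor, had 7.53, 7.25 and 1.76 FPKM on the inhibitor and 0.538, 1.41 and 1.16 FPKM before treatment and did not pass (limma, adjusted p = 0.0615).

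Of the receptors that clear serpin and protease complexes, 3 were tested and none passed in limma's test, with a median log2 fold change of 0.39; 2 of them had an unadjusted p of at most 0.05, which 34.2% of all genes reached. Lrp1, the main such receptor, had 82.2, 87.9 and 96.0 FPKM on the inhibitor and 77.6, 66.5 and 59.2 FPKM before treatment (interval of the log2 fold change -0.0059 to 0.79). Lrp8 and Vldlr, related receptors, had log2 fold changes of -3.47 and 1.15. For Lrp8 the limma adjusted p was 0.0501, and it passed as lower with either other pseudocount, without a filter on low values, with median of ratios scaling, with quantile normalization, without a trend, with array weights, and without on-BRAFi replicate 2 or 3 or pre-treatment replicate 1 or 3. Lrp1 passed as higher with quantile normalization (limma, adjusted p = 0.0233). With array weights 1 of the 3 also passed as higher. After rescaling to the same total Lrp1 and Vldlr passed as higher (adjusted p 0.0393 and 0.0286) and Lrp8 did not pass.

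Serpinf1, a non-inhibitory serpin, had the largest log2 fold change among the 12 genes described. It encodes PEDF, a secreted factor known for limiting blood vessel growth and supporting neurons. Its level was 502, 567 and 598 FPKM on the inhibitor, against 130, 131 and 104 FPKM before treatment. The groups were far apart, with a mean 4.57-fold higher on the inhibitor, a log2 fold change of 2.20 ± 0.17 (SE) and adjusted p = 9.00e-04 in limma's test. Serpinf1 is expressed by fibroblasts; of the 8 fibroblast markers Dcn, Lum, Dpt and Col1a2 were also higher, whereas Pdgfra, Fap, Pdpn and Thy1 did not pass, and their part in the result was not tested. No 50-base stretch of its transcripts occurs in another gene of the annotation.

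Of the 5 genes listed as PEDF receptors, 2 rose, 1 fell and 2 did not pass. Plxdc2 and Lrp6 rose 4.05-fold and 2.05-fold in mean FPKM. Rpsa, better known as a protein of the small ribosomal subunit, fell 4.18-fold. These 3 passed whichever library was left out. Pnpla2, a lipase that binds PEDF, had a log2 fold change of 0.26 (interval -0.21 to 0.74), and Plxdc1, a membrane receptor, of -0.48 (interval -1.37 to 0.40).

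Serpinh1 encodes HSP47, the chaperone of the endoplasmic reticulum that binds folded procollagen. It had 181, 198 and 190 FPKM on the inhibitor, against 166, 132 and 144 FPKM before treatment. Every treated library was above every untreated one, yet the difference was small: 1.29-fold in mean FPKM, a log2 fold change of 0.37 with an interval from -0.0075 to 0.74, and adjusted p = 0.153 in limma's test. It passed with quantile normalization (log2 fold change 0.80, adjusted p = 0.0112) and after rescaling to the same total (log2 fold change 0.91, adjusted p = 0.0360), also where totals were taken without short RNA genes, but under no setting that left out a library.

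Collagen is the client of HSP47. Each collagen chain tested in the companion list passed as higher, whereas the collagen folding genes were split in the main fit. The list holds chains of types I, III, IV, V and VI, and other collagen chains were not looked at here. Of 25 tested collagen chains and collagen folding genes, 13 rose, 2 fell and 10 did not pass. The median log2 fold change was 0.91, beside -0.0063 for all genes. Among folding genes Fkbp14, Plod1 and P4ha2 rose (log2 fold changes of 2.19, 1.49 and 1.00), and P4ha1 and Plod2 fell (-0.87 and -0.97). The other folding genes did not pass and ran from -0.48 for Glt25d1 to 0.64 for Crtap. With a library left out, P4ha1 passed in 0 of 6 fits, P4ha2 in 1, and Plod1 and Plod2 in 2 each. After rescaling to the same total, P4ha1 and Plod2 did not pass (log2 fold changes -0.323 and -0.425, limma adjusted p 0.586 and 0.231). Under that scaling 15 of the 25 were higher and 0 lower. With quantile normalization P4ha1 did not pass either (limma, adjusted p = 0.137), while Plod2 did (adjusted p = 0.0209). Col1a1 rose 11.7-fold and Col3a1 8.97-fold in mean FPKM, both fibrillar collagens, and the type VI chains Col6a1 and Col6a2 rose 3.44-fold and 3.35-fold. Col1a2, which is also one of the 8 fibroblast markers, rose 4.47-fold, and Col5a1 rose 2.94-fold. Col4a1, a basement membrane chain, rose 2.04-fold but missed the threshold without on-BRAFi replicate 2 or pre-treatment replicate 2 or 3. Col4a2, at a log2 fold change of 1.07, missed it without on-BRAFi replicate 2 or 3. Serpinh1, at a log2 fold change of 0.37, lay within the range of the folding genes that did not pass. Among the chains the values ran from 0.91 for Col6a3 to 3.56 for Col1a1. No test of the difference between these genes was made. Without on-BRAFi replicate 1, 2 or 3 or pre-treatment replicate 3, none of the 25 fell.

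Clade B serpins lack a secretion signal and act in the cytosol and nucleus. Of 25 genes of this role group in the table, 6 were described, 2 of which rose and none of which fell, and 13 were listed at 0 in all libraries. Serpinb9 encodes the inhibitor of granzyme B, the protease that cytotoxic lymphocytes inject into target cells. It had 43.6, 59.2 and 45.7 FPKM on the inhibitor, against 11.6, 12.9 and 17.9 FPKM before treatment. The groups did not overlap, and the mean was 3.50-fold higher on the inhibitor (log2 fold change 1.81 ± 0.23, SE; limma, adjusted p = 0.00337).

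Serpinb6b, described in the mouse as an inhibitor of granzyme A, had 9.41, 9.76 and 6.53 FPKM on the inhibitor, against 3.77, 2.35 and 2.94 FPKM before treatment. Its groups did not overlap either, with a mean 2.84-fold higher on the inhibitor (log2 fold change 1.48 ± 0.27, SE; limma, adjusted p = 0.0124). It missed the threshold without on-BRAFi replicate 1 or 2 or pre-treatment replicate 2 or 3 (adjusted p 0.0512 to 0.0698). Of its 50-base stretches, 2.92% also occur in another gene, mostly in Serpinb6c. Serpinb6b and Serpinb9 are neighbouring coding genes in the RefSeq table of GRCm38.p6, on chromosome 13, which holds 15 of the 59 reported genes matched there, 5 of them among the 12 described.

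The granule proteases that these inhibitors meet were mostly near 0. Of 17 genes of granule and mast cell proteases, 1 reached the level for testing, Gzmm, which did not pass (log2 fold change 0.84, interval -0.030 to 1.72). Gzmb was listed at 0 in all 3 libraries on the inhibitor and at 0, 0.184 and 0.638 FPKM before treatment. Gzma was at 0, 0 and 1.77 FPKM on the inhibitor and at 0, 0.625 and 1.41 FPKM before treatment. The T and NK cell markers summed to 0.936 to 4.40 FPKM on the inhibitor and 2.54 to 6.23 FPKM before treatment, ranges that overlap. Lymphocytes, which carry the CD45 against which the cells were sorted, also express Serpinb9. The T cell marker Cd3g had 0, 2.96 and 0.380 FPKM on the inhibitor and 2.06, 2.91 and 2.81 FPKM before treatment. The part of lymphocytes in the Serpinb9 values was not tested.

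Serpinb6a was the most abundant of the 61 reported serpin genes before treatment. Its human counterpart inhibits cathepsin G. It had 254, 294 and 163 FPKM on the inhibitor, against 452, 345 and 384 FPKM before treatment. The groups did not overlap, but the log2 fold change of -0.77 (interval -1.37 to -0.16) did not pass (limma, adjusted p = 0.0815), and it was -0.22 after rescaling to the same total. In the GRCm38 annotation 29.3% of its exon bases are overlapped by genes on the opposite strand, among them Nqo2 and Ripk1, whose reads cannot be told apart from its own in unstranded libraries.

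The other clade B genes did not pass. Serpinb8, whose human counterpart inhibits furin, had 10.6, 13.9 and 8.77 FPKM on the inhibitor and 11.9, 8.36 and 7.65 FPKM before treatment, with overlapping groups (interval -0.37 to 0.87 on the log2 scale). Serpinb1a, a counterpart of the human inhibitor of neutrophil elastase, had 5.95, 6.94 and 8.52 FPKM on the inhibitor and 5.62, 4.72 and 5.18 FPKM before treatment; its groups did not overlap, by a small margin (log2 fold change 0.44, interval -0.065 to 0.95). The neutrophil markers S100a8, S100a9 and Retnlg were at 0 in all 6 libraries. Serpinb6c had 4.01, 1.14 and 3.49 FPKM on the inhibitor and 1.97, 1.91 and 3.13 FPKM before treatment, and 9.92% of its 50-base stretches are shared with other genes, most of them Serpinb6 relatives, so its level is uncertain.

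Lysosomal cathepsins, some of which human clade B serpins inhibit, changed in both directions: 5 of 10 tested rose, 2 fell and 3 did not pass, with a median log2 fold change of 0.71. Ctsk, a collagen-cutting cathepsin, rose 4.10-fold, and Ctsd and Ctsz rose 1.96-fold and 1.69-fold in mean FPKM. Ctss fell 3.25-fold, and Ctsl fell 2.53-fold, but with a library left out it passed only in the fit without on-BRAFi replicate 2. Ctso, 1.98-fold higher, missed the threshold without on-BRAFi replicate 1 or 2 or pre-treatment replicate 2. In the fits without on-BRAFi replicate 1 or 2 or pre-treatment replicate 2, the number that rose was 3; scaled to equal totals, 6 were higher and 0 lower.

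Of the antitrypsin and antichymotrypsin type, 1 of 20 genes was described and 8 were at 0 in all libraries. Serpina3n, an acute phase inhibitor that in the mouse acts on leukocyte elastase and granzyme B, had 12.4, 8.20 and 2.87 FPKM on the inhibitor and 2.69, 2.36 and 5.20 FPKM before treatment. On-BRAFi replicate 3 lay within the untreated range, and the gene did not pass (log2 fold change 1.03, interval -0.32 to 2.38). Of its 50-base stretches, 6.90% are shared with its Serpina3 relatives.

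Across libraries the 61 reported genes kept a simple make-up with a changed leader. Serping1 and the serpin gene that is not reported are outside these sums and ranks. Serpinf1, Serpinb6a and Serpinh1 together held between 86.4% and 92.8% of the summed FPKM of these 61 genes in every library. Serpinf1 ranked first in all 3 libraries on the inhibitor and was behind Serpinb6a and Serpinh1, in that order, in all 3 before treatment. In pre-treatment replicate 2 Serpinf1 and Serpinh1 were close, at 131 and 132 FPKM. Serpinf1 was 1.98, 1.93 and 3.66 times the Serpinb6a level on the inhibitor, against 0.288, 0.379 and 0.271 times before treatment. On the inhibitor Serpinb6a and Serpinh1 overlapped in level, as did Serpinb9 and Serpine2, which also overlapped before treatment. The sum over the 61 genes was 1083, 1219.8 and 1066 FPKM on the inhibitor, against 805, 657 and 697 FPKM before treatment. Without Serpinf1 it was 581, 653 and 468 FPKM on the inhibitor and 675, 527 and 593 FPKM before treatment, which overlap.

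**Figure D3:**
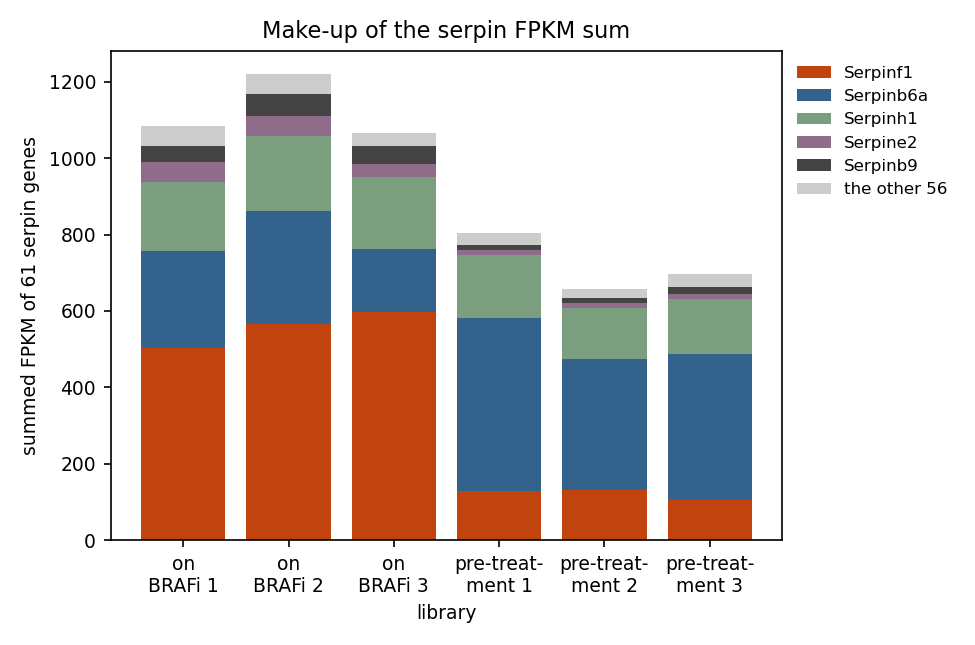
Summed FPKM of 61 serpin genes in each library, the 3 on the BRAF inhibitor on the left and the 3 pre-treatment on the right, split into 5 named genes and the other 56. The Serpinf1 part is 502 to 598 FPKM on the inhibitor and 104 to 131 FPKM before treatment, and the Serpinb6a part is 163 to 294 and 345 to 452 FPKM.

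Of the 49 genes under a mean of 1 FPKM, 27 were listed at 0 in all 6 libraries and 22 had a value above 0 in at least 1. The members nearest the limit were Serpine3 and Serpini1 above it, with means of 1.44 and 1.63 FPKM, and Serpind1 and Serpina3g below it, with 0.801 and 0.622 FPKM. Only 5 of the 49 reached 1 FPKM in any library, and the highest value was 1.701 FPKM for Serpinb2 in on-BRAFi replicate 1. Serpina3c, picked out after its values were seen, had 1.65, 1.39 and 0.569 FPKM on the inhibitor and was listed at 0 in all 3 pre-treatment libraries. It passed as higher when low genes were tested too (limma, adjusted p = 0.00861), at a level where a listed 0 can be a failed estimate. The epithelial serpins Serpinb3a to Serpinb3d, Serpinb5, Serpinb11, Serpinb12 and Serpinb13 were at 0 throughout, as were most keratinocyte markers.

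Inhibitors from other protein families were set beside the serpins. Of 13 tested, 6 rose, 2 fell and 5 did not pass, with a median log2 fold change of 1.12. Pi15, a secreted protein first described as a trypsin inhibitor, had 108, 125 and 116 FPKM on the inhibitor, against 11.4, 11.6 and 11.8 FPKM before treatment. Itih5, of the inter-alpha-trypsin inhibitor heavy chains, rose to a mean of 10.8 ± 5.82 FPKM on the inhibitor, against 0.369 ± 0.0735 FPKM before treatment (SD, n = 3 each). Cst3, the cathepsin inhibitor cystatin C, rose 2.92-fold, and Reck, a membrane inhibitor of metalloproteinases, rose 3.14-fold but missed the threshold without on-BRAFi replicate 1. Timp1, a secreted metalloproteinase inhibitor, fell 6.81-fold. Cstb, a cystatin of the cytosol, fell 1.91-fold and missed the threshold after rescaling to the same total.

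**Figure D4:**
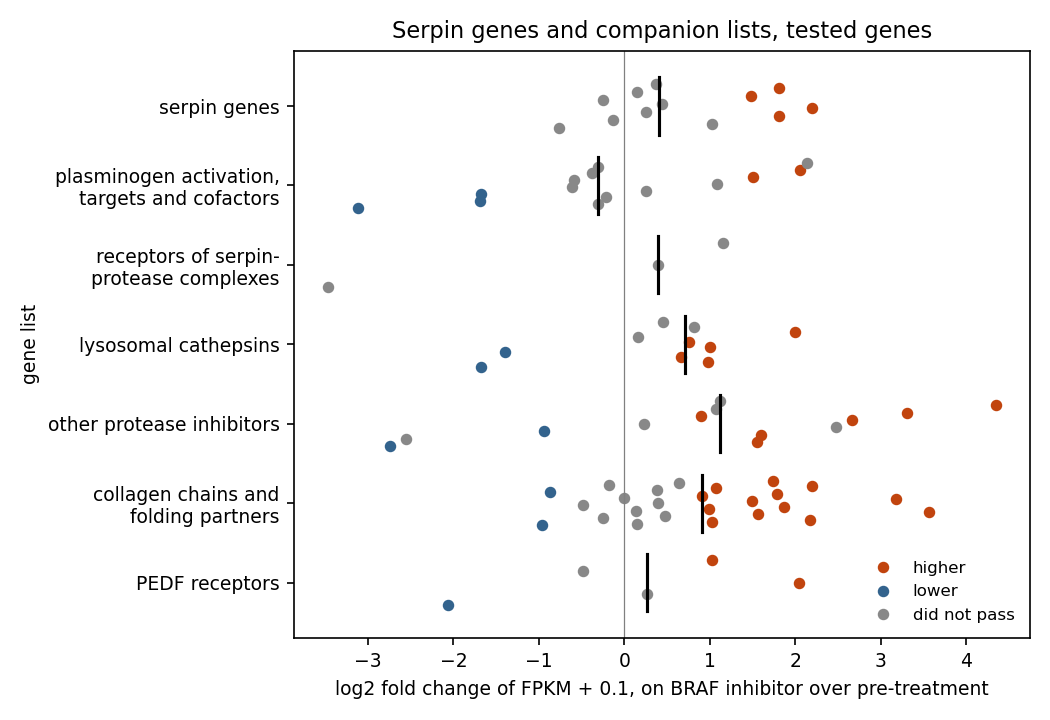
Log2 fold change of FPKM + 0.1, on the BRAF inhibitor over pre-treatment, of each tested gene in the serpin family and in 6 companion lists, with the list median as a black line. Orange and blue points passed as higher and lower and grey points did not pass; the medians run from -0.31 for plasminogen activation to 1.12 for the other protease inhibitors, with 0.41 for the serpins. The granule protease list, with 1 tested gene, is not drawn.

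**Figure D5:**
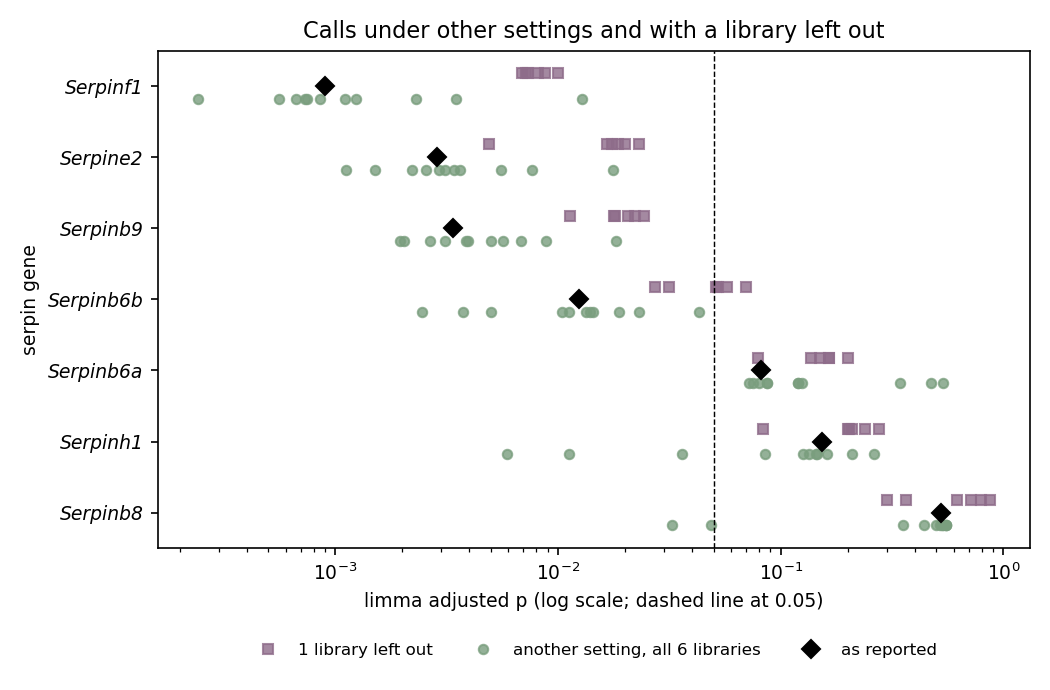
Limma adjusted p (log axis) of 7 serpin genes as reported (black diamonds), with another setting on all 6 libraries (green circles) and with 1 library left out (purple squares); the dashed line is 0.05. Serpinf1, Serpine2 and Serpinb9 stay left of the line throughout, and Serpinb6b crosses it in 4 of the 6 fits with a library left out.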

How the data were processed

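RNA was extracted with an RNeasy micro kit and made into unstranded poly(A) TruSeq libraries, per the labels' protocols, which call the reads single-end in one place and paired-end in another. The authors deposited 1 table of FPKM with 1 column per tumour. The submitters' processing notes list the build mm9 and the tools TopHat2, TopHat, Cuffnorm and Cuffdiff, with no version; which annotation was counted, and whether libraries were rescaled, is not given there. The smallest values above 0 lie far under what 1 read could give, so read depth is unknown, and no interval that needs a count is given.

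Genes with a mean of at least 1 FPKM over the 6 libraries (12075 of 23940) were fitted as log2(FPKM + 0.1) with 2 groups in limma 3.58.1 (R 4.3.3; eBayes with trend). Tests were two-sided, Benjamini-Hochberg adjusted over all 12075 genes, with a threshold of 0.05; fold changes on this scale understate low genes, and folds of mean FPKM are given beside them. A permutation test of 3 against 3 cannot go below 0.1. The fit was also run on simulated data with independent noise per gene and no shift in library scaling. Such data cannot show how scaling or the mix of cells affects the calls made here. A gene that did not pass may still differ. The family, the role groups, the companion and marker lists and the rule for naming genes (every serpin with a mean of at least 1 FPKM, and of each companion list up to 6 genes with the smallest p plus 8 named in advance) were chosen with earlier results of these data known. Other genes are named for their known role. A serpin gene and a gene of a companion list are not reported here; they stayed in the fit across all genes and enter no other count, median or sum. Shared 50-base stretches and exon overlap come from GENCODE M21, and promoters and neighbours from RefSeq, both on GRCm38. Alternatives were other pseudocounts (1 and 0.01), filters (none, and at least 5 FPKM), scalings, limma settings, the tumour number as a block and each library left out. Means are given with the SD of 3 libraries.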

Additional observations from a re-analysis of the deposited data

How the results depend on the processing

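Of 201 refits of single serpin genes, 182 kept their direction and their side of the threshold. With 1 library left out, 3 to 4 of the 12 serpin genes passed, and the loss was Serpinb6b, while 9.21% to 12.9% of all genes passed, against 19.1% with all libraries. After rescaling to the same total FPKM 6 passed, beside 20.9% of all genes, and with quantile normalization 5, beside 18.1%. With totals taken without short RNA genes, an alternative chosen after seeing the data, 7 passed, all higher, with Serpinb1a, Serpinb8 and Serpinh1 added, while 35.2% of all genes passed and their median was 0.52. Of the genes that passed under no setting, 3 changed sign: Serpine3 was at 0.22 and Serpini1 at 0.38 on the log2 scale under both of these rescalings, and with 1 library left out Serpine3 ran from -1.05 to 0.64, Serpini1 from -0.38 to 0.0026 and Serpinb6c from -0.17 to 0.69. The cause was not tested. The count of serpin genes that passed was 4 with either pseudocount, with only genes of at least 5 FPKM, with median of ratios scaling, without a trend and with array weights, and 5 without a filter on low values, where 12.3% of all genes passed.

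With the tumour number as a replicate block the same 4 serpin genes passed, against 1237 of all genes, beside 2307 without it. Deviations of libraries with the same number correlated at -0.0296, 0.0116 and -0.0896, and those with unlike numbers at -0.0873 to 0.1152. With 3 libraries per group these values cannot decide whether the numbers pair the libraries. Depth is unknown, and levels near 1 FPKM, such as those of Serpine3, are the least certain.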
